A study of Homo sapiens with 6 samples.

Results

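The genes of transforming growth factor beta (TGF-beta), bone morphogenetic protein (BMP) and SMAD signalling were examined in U87-MG cells, an established human glioma line. The set was fixed by name and held 55 of the 61806 genes of the deposited table, 15 ligands, 12 receptors, 9 extracellular regulators, 8 SMADs, 6 regulators of SMADs and 5 targets. Each gene was taken by its name and role.

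TGF-beta and BMP ligands are secreted dimers that bring type I and type II receptor kinases together at the cell surface. TGF-beta and activin receptors phosphorylate SMAD2 and SMAD3, BMP receptors phosphorylate SMAD1, SMAD5 and SMAD9, and both kinds of SMAD enter the nucleus with SMAD4 to regulate transcription. In glioblastoma, TGF-beta is known for its link to invasion, matrix production and immune suppression, and BMPs are known for their link to astrocytic differentiation.

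The study sequenced 3 libraries of U87-MG cells with a negative control (NC) and 3 libraries titled GRIK1 siRNA, in order to compare cells with and without knockdown of the kainate receptor gene GRIK1. The NC libraries carry the genotype label wildtype, the others the label GRIK1 knockdown, and the series text speaks of an shRNA where the titles speak of an siRNA. No dose or time after transfection is given in the sources used here, and the labels do not say whether the 3 libraries of a group came from separate cultures or whether siRNA 1, 2 and 3 are different sequences. The methods of the study number different GRIK1 siRNA sequences in the same way, and the study took siRNA1 forward to later experiments, so the 3 libraries may hold different sequences or repeats of the same, and the spread between libraries may be technical. Total counts per library were between 11099909 and 14006968.

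GRIK1 itself had 18, 9 and 8 counts in NC libraries 1, 2 and 3, against 15, 20 and 20 counts in the libraries titled siRNA 1, 2 and 3. On the log2(FPKM + 1) scale it was 0.12 higher in the latter (two-sided exact permutation test, p = 0.4, where 0.1 is the smallest value that 3 against 3 allows). GRIK1 counts were thus not lower in the libraries labelled as its knockdown, which are called the siRNA-labelled libraries here. Its means, 0.233 FPKM in the NC and 0.34 FPKM in the siRNA-labelled libraries, were below the limit of 0.5 FPKM for testing. Counts this low cannot decide whether GRIK1 was knocked down. The study reported an efficient knockdown of GRIK1 in U87-MG cells, with its relative levels measured apart from the RNA sequencing. NC library 3 stood apart from the other 5 libraries. It lay alone on the first principal component, which held 59.5% of the variance, and leaving it out lowered the common dispersion of edgeR from 0.0391 to 0.00298. Most results below are therefore given with and without it. Of the markers of the line, VIM had between 824.62 and 1076.17 FPKM and CD44 between 50.77 and 71.63. FN1 had 66.69, 62.89 and 11.61 FPKM in NC libraries 1, 2 and 3, against 93.32, 90.34 and 89.93 in the siRNA-labelled libraries. Without NC library 3, FN1 was higher (adjusted p = 7.7e-07 from edgeR) and CD44 lower (adjusted p = 0.000205) in the siRNA-labelled libraries. With all 6 libraries the adjusted p-values from edgeR were 0.302 for FN1 and 0.401 for CD44. The glial and stem markers GFAP, SOX2, S100B, SOX10, NES and OLIG2 were each at or under 0.83 FPKM in every library. GFAP had 0.10, 0.09 and 0.05 FPKM in NC libraries 1, 2 and 3, against 0.28, 0.25 and 0.26 in the siRNA-labelled libraries. For markers of other cell types, the summed FPKM lay between 0.02 and 0.09 for 4 endothelial genes, between 0.34 and 0.76 for 4 immune genes (CD3E at 0), between 4.58 and 6.39 for 4 epithelial genes and between 1.88 and 2.81 for 3 neuronal genes. Of the 15, 5 were tested and 0 passed in edgeR with all 6 libraries, with 3 at an unadjusted p under 0.05, against 25.1% of all genes tested. Without NC library 3, KRT8 and SNAP25 passed in edgeR (adjusted p = 0.00493 and 0.000124). The groups did not overlap for 4 of the 15, KRT8 and SNAP25 lower and SYT1 and RBFOX3 higher, and their part in the results was not tested. Among all genes tested, 14.9% were lower and 23.4% higher without overlap. These shares leave out genes below the limit for testing, while the 15 markers include such genes. RBFOX3, between 0.10 and 0.33 FPKM, is 1 of them.

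Of the 55 genes, 42 reached 0.5 FPKM on average and were tested. FPKM is the count scaled to the exonic length of the gene and the total count of the library. FSTL1, a secreted follistatin-like glycoprotein, had the highest level, with 50.6 ± 2.58 FPKM (SD, n = 3) in the NC libraries. TGFB1, the main TGF-beta ligand of most tissues, followed with 29.8 ± 3.85, and the repressor TGIF1 with 28.4 ± 5.29. The order of these last 2 was not beyond their spread. The type II receptor TGFBR2 had 24.8 ± 2.4 FPKM, the TGF-beta-inducible transcription factor KLF10 had 20.3 ± 2.74, the SMAD repressor SKIL had 19.7 ± 3.07 and SMAD3 had 18.9 ± 2.8, and the ranges of the last 3 overlapped. SMAD3 exceeded its partner SMAD2, at 2.13 ± 0.0971 FPKM, in every library, and SMAD5, at 10.4 ± 1.65, exceeded SMAD1, at 2.18 ± 0.215, in every library.

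**Figure D1:**
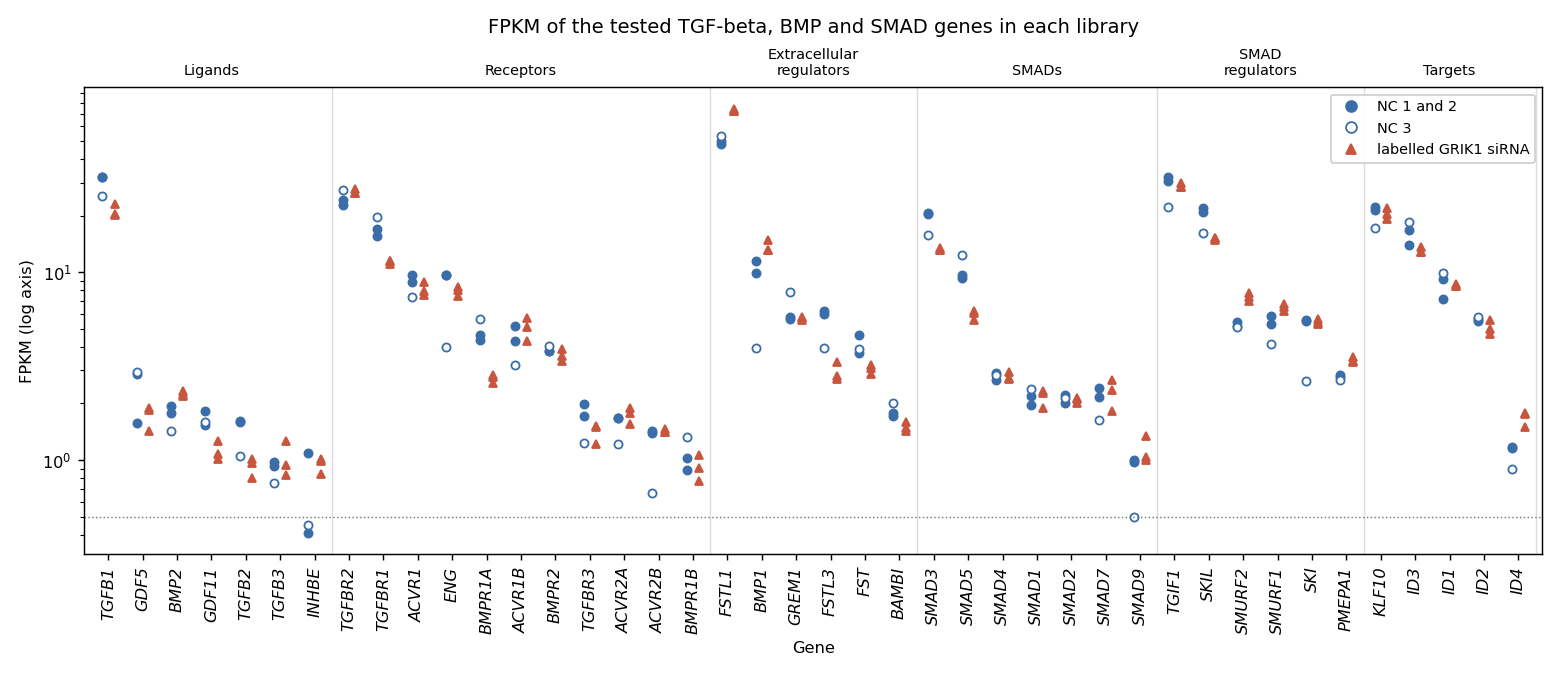
FPKM on a log axis for each of the 42 tested genes, ordered by role and by mean NC level, with 1 point per library (filled circles NC 1 and 2, open circles NC 3, triangles siRNA-labelled). FSTL1 is at the top with means of 50.6 and 72.9 FPKM, and the dotted line marks the limit of 0.5 FPKM on the mean.

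The other 13 genes were below the limit. They were the ligands BMP4, BMP5, BMP6, BMP7, BMP8B, GDF6, INHBA and INHBB, the endothelial type I receptor ACVRL1, the BMP antagonists NOG and CHRD, the latent TGF-beta anchor LRRC32 and the inhibitory SMAD6. For 8 of the 13, no library had more than 3 counts, which is also what a count of 0 allows. GDF6 had 0 counts in all 6 libraries. SMAD6 was the highest of them, with 0.43, 0.39 and 0.34 FPKM in NC libraries 1, 2 and 3, against 0.42, 0.49 and 0.39 in the siRNA-labelled libraries, so its groups overlapped. BMP8B, with 52 counts in all, is a close paralog of BMP8A, and the reads of these genes may have been shared. Among the BMP ligands of the 55 genes, BMP2 was thus the 1 that was tested, beside GDF5 and GDF11 of the wider family.

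Between the groups, 4 of the 42 tested genes had an adjusted p under 0.05 in edgeR, and all 4 were lower in the siRNA-labelled libraries. They were BMPR1A, a type I BMP receptor, SMAD5, a SMAD of the BMP branch, SMAD3, a SMAD of the TGF-beta branch, and FSTL3, a secreted inhibitor of activin. Across all 15870 genes tested, 3.09% passed, 1.48% as lower and 1.61% as higher. At an unadjusted p under 0.05 there were 14 of the 42, against 25.1% of all genes. The median log2 fold change was -0.11 over the 42 genes and -0.02 over all genes tested. Without NC library 3 these medians were -0.07 and 0.01. None of the 4 had an absolute log2 fold change over 1, which 1.41% of all genes had together with an adjusted p under 0.05. In bulk RNA, less RNA per cell and fewer cells that hold it cannot be told apart.

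BMPR1A (ENSG00000107779, chromosome 10 from 86756601 to 86932825, plus strand) had 4.35, 4.63 and 5.67 FPKM in NC libraries 1, 2 and 3, against 2.57, 2.76 and 2.82 in the siRNA-labelled libraries. All siRNA-labelled libraries were below all NC libraries, and the mean was 55.6% of the NC mean. The log2 fold change was -0.95 with a standard error of 0.17 (adjusted p = 0.0388 from edgeR). Its pseudogenes BMPR1AP1 and BMPR1AP2 took 1 and 0 counts in all libraries together.

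SMAD5 (ENSG00000113658, chromosome 5 from 136132845 to 136188747, plus strand) had 9.70, 9.30 and 12.34 FPKM in NC libraries 1, 2 and 3, against 5.56, 6.06 and 6.23 in the siRNA-labelled libraries. The groups did not overlap, and NC library 3 was the highest, as it was for BMPR1A. The log2 fold change of SMAD5 was -0.91 with a standard error of 0.18 (adjusted p = 0.0442 from edgeR).

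SMAD3 (ENSG00000166949, chromosome 15 from 67063763 to 67195173, plus strand) had 20.44, 20.62 and 15.69 FPKM in NC libraries 1, 2 and 3, against 13.16, 13.48 and 13.17 in the siRNA-labelled libraries. Here NC library 3 was the lowest of the NC libraries and still above the other group. The SMAD3 log2 fold change was -0.59 with a standard error of 0.12 (adjusted p = 0.0445 from edgeR).

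FSTL3 (ENSG00000070404, chromosome 19 from 676392 to 683392, plus strand) had 5.97, 6.22 and 3.93 FPKM in NC libraries 1, 2 and 3, against 3.33, 2.80 and 2.70 in the siRNA-labelled libraries. The gap between the groups was narrow because of NC library 3. The FSTL3 log2 fold change was -0.94 with a standard error of 0.18 (adjusted p = 0.0433 from edgeR).

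These 4 genes also passed without NC library 3, where the largest adjusted p of the 4 was 4.18e-06. Their log2 fold changes there were -0.75 for BMPR1A, -0.70 for SMAD5, -0.65 for SMAD3 and -1.08 for FSTL3. All 490 genes that passed with all 6 libraries passed in that fit as well, so this is not particular to the 4. When any 1 of the other 5 libraries was left out, with NC library 3 kept in, 0 of the 42 genes passed in edgeR. The same held for all genes tested, of which 0 passed in each of those fits. Between 10 and 15 of the 42 had an unadjusted p under 0.05 there. Over those 5 fits the adjusted p of BMPR1A was between 0.0677 and 0.227, that of SMAD5 between 0.071 and 0.233, that of SMAD3 between 0.0911 and 0.253 and that of FSTL3 between 0.0889 and 0.237. DESeq2 with all 6 libraries called all 4. In limma-trend on log2(FPKM + 1), BMPR1A and SMAD5 passed, while FSTL3 and SMAD3 did not, with adjusted p-values of 0.0872 and 0.0948. With a pseudocount of 0.1 SMAD5 also missed the threshold (adjusted p = 0.0522).

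**Figure D2:**
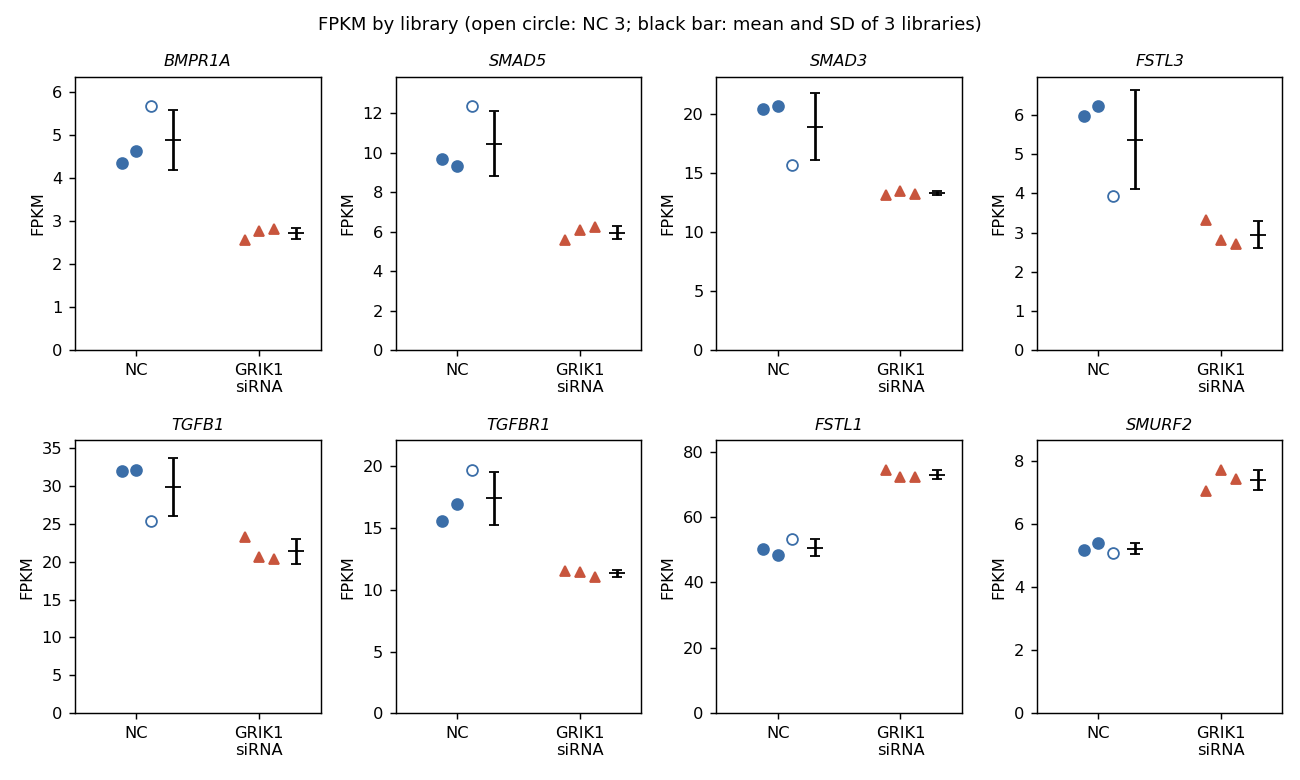
FPKM by library for 8 genes, with circles for NC (open for NC 3), triangles for the siRNA-labelled libraries, and a bar for the mean and SD of the 3 libraries of each group. BMPR1A, SMAD5, SMAD3, FSTL3, TGFB1 and TGFBR1 lie lower and FSTL1 and SMURF2 higher in the siRNA-labelled libraries, and the groups do not overlap in any panel.

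The sequences before the starts of these 4 genes are shown because they were the genes that passed, and so that their promoters can be compared. They are the 250 bases upstream of the annotated start from RefSeq (GRCh38.p14, 5′ to 3′ on the strand of the gene, all on the plus strand). SMAD3 has 5 annotated starts, and the most upstream was taken. Capitals mark GGCGCC, a GC-rich motif that SMADs can bind, searched on both strands, where it reads the same. The starts of BMPR1A and SMAD3 in RefSeq differ from those of the deposited table. The positions are chr10:86755513-86755762 for BMPR1A, chr5:136132595-136132844 for SMAD5, chr15:67065352-67065601 for SMAD3 and chr19:676142-676391 for FSTL3.
BMPR1A: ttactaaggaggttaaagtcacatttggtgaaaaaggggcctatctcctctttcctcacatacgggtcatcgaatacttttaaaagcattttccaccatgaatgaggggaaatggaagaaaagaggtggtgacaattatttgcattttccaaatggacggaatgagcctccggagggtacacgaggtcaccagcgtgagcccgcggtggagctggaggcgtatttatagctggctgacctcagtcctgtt
SMAD5: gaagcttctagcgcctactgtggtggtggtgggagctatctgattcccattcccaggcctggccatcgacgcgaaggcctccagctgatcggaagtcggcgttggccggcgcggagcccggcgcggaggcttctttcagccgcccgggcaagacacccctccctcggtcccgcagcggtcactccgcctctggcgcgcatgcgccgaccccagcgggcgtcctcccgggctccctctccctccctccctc
SMAD3: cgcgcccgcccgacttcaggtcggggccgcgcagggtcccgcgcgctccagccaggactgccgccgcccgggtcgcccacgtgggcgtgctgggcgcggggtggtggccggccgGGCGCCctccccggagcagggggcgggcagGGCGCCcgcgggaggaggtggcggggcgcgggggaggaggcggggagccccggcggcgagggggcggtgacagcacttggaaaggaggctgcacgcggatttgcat
FSTL3: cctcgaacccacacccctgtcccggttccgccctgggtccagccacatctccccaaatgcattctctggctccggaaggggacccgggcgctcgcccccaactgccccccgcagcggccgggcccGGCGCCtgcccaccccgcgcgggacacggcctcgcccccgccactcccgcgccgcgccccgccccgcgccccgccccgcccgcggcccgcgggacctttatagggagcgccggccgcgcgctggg
GGCGCC occurred 2 times before SMAD3, 1 time before FSTL3 and 0 times before SMAD5 and BMPR1A. The short SMAD box CAGAC, searched on both strands, occurred 0 times in the 4 windows. A promoter was at hand for 45 of the 55 genes, of which 15 held GGCGCC and 14 held CAGAC. Of 27305 genes with such a window, taken at the most upstream start, 16.0% held GGCGCC and 37.9% held CAGAC. The BMPR1A window had a GC content of 47.2%, against 70.4% for SMAD5, 80.8% for SMAD3 and 80.0% for FSTL3. A match of letters is a description of the sequence and not a binding site, and which start these cells use was not measured.

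Without NC library 3, 18 of the 42 genes had an adjusted p under 0.05, 14 lower and 4 higher, where 35.2% of all genes passed, 18.3% as lower and 16.9% as higher. At an unadjusted p under 0.05 there were 22 of the 42, against 43.5%. FSTL3 was the 1 gene with an absolute log2 fold change over 1 there, where 3.09% of all genes were past both limits. DESeq2 called 11 of the 42 with all libraries, against 10.6% of all genes, and 15 without NC library 3, against 26.5%. The sign of the fold change was the same with and without that library for 37 of the 42 genes, against 13029 of all 15870 genes tested. In FPKM, the groups did not overlap with all 6 libraries for 12 genes that were lower and 7 that were higher, against 14.9% and 23.4% of all genes. Values printed in FPKM carry the total count of the library as their only scaling, while fold changes use the TMM scaling of edgeR, which placed them 0.08 lower on the log2 scale in the median over all genes.

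**Figure D3:**
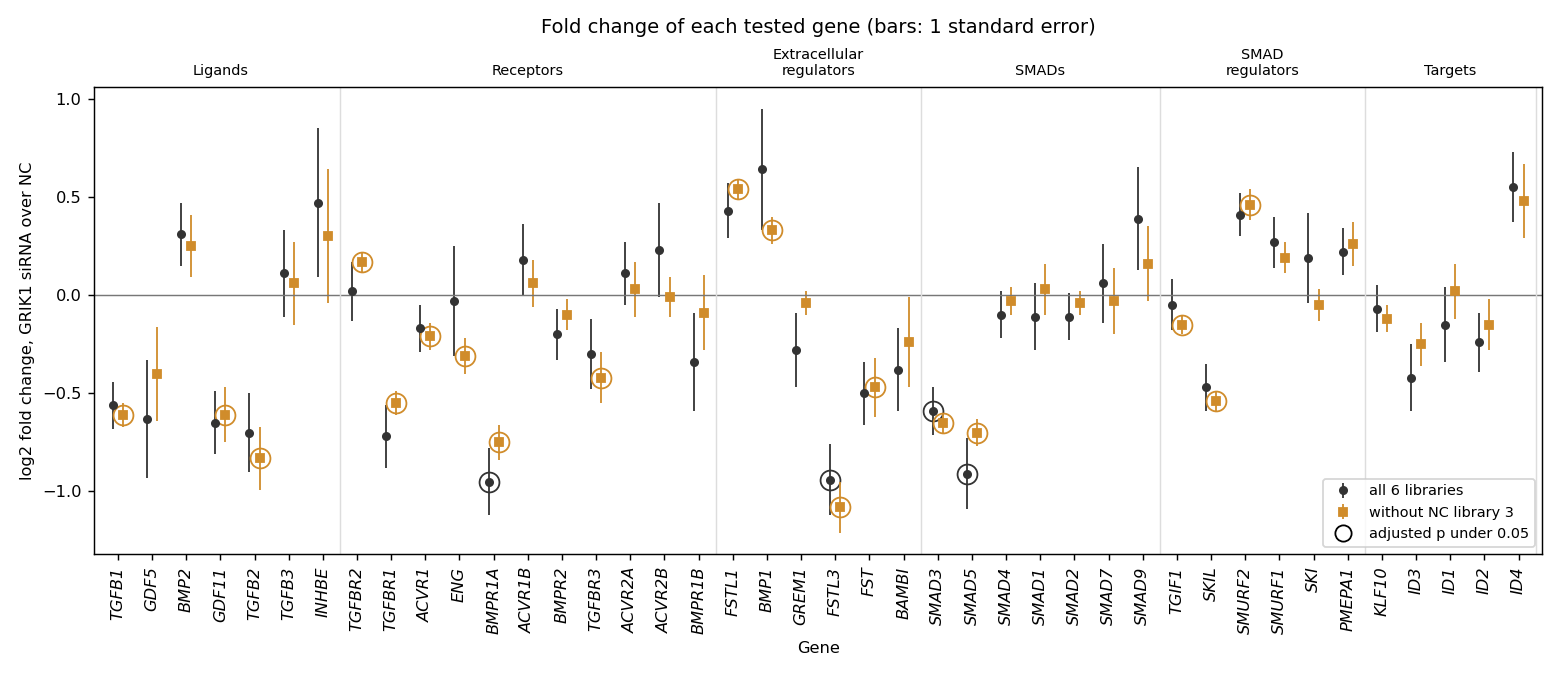
Log2 fold change of each of the 42 tested genes, siRNA-labelled over NC, with bars of 1 standard error, for all 6 libraries (black circles) and without NC library 3 (orange squares). Rings mark an adjusted p under 0.05, which 4 genes had with all 6 libraries and 18 without NC library 3.

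Of the 15 ligands, 7 were tested, and 0 passed in edgeR with all 6 libraries, while 3 had an unadjusted p under 0.05. These 3, TGFB1, TGFB2 and GDF11, were lower without overlap of the groups and passed without NC library 3. DESeq2 called all 3 with all 6 libraries, with adjusted p-values of 0.00155, 0.0465 and 0.0191, and edgeR without the filter called TGFB1 (adjusted p = 0.0431). TGFB1 had 31.96, 32.09 and 25.35 FPKM in NC libraries 1, 2 and 3, against 23.20, 20.54 and 20.27 in the siRNA-labelled libraries. It just missed the threshold with all libraries, with a log2 fold change of -0.56, a standard error of 0.12 and an adjusted p of 0.0503 from edgeR. Its log2 fold change was -0.61 without NC library 3 (adjusted p = 1.26e-06). HNRNPUL1, CCDC97 and TMEM91 overlap TGFB1 on the opposite strand and an unnamed gene on the same strand, and whether the counting used strand is not given in the sources used here. The 3 named genes had log2 fold changes of -0.06, 0.62 and 0.12, none past the threshold.

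TGFB2, a ligand that needs the co-receptor TGFBR3 for strong binding, had 1.62, 1.60 and 1.05 FPKM in NC libraries 1, 2 and 3, against 0.96, 1.01 and 0.80 in the siRNA-labelled libraries. The lowest NC library was close to the highest of the other group. Its log2 fold change was -0.70 with a standard error of 0.20 (adjusted p = 0.0959 from edgeR), and -0.83 without NC library 3 (adjusted p = 0.000692). GDF11, an activin-like ligand, had 1.54, 1.83 and 1.60 FPKM in the NC libraries, against 1.01, 1.26 and 1.08 in the siRNA-labelled libraries, with a log2 fold change of -0.65, a standard error of 0.16 and an adjusted p of 0.0696 from edgeR. The GDF11 value was -0.61 without NC library 3 (adjusted p = 0.00211). SARNP overlaps GDF11 on the opposite strand.

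The other 4 tested ligands did not pass with or without NC library 3. TGFB3 had a log2 fold change of 0.11 with a standard error of 0.22. IFT43 overlaps TGFB3 on the opposite strand, with 4528 counts in all libraries against 366 for TGFB3, and its part was not tested. BMP2, whose groups did not overlap, had 0.31 with a standard error of 0.16. The stress-induced inhibin subunit INHBE had 0.47 with a standard error of 0.38, and GDF5, a ligand of cartilage and joints, had -0.63 with a standard error of 0.30. INHBE and GDF5 varied widely among the NC libraries, from 0.41 to 1.09 and from 1.58 to 2.96 FPKM.

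Of the 12 receptors, 11 were tested. BMPR1A passed with all libraries, and without NC library 3 there were 6, of which TGFBR2 was higher and the other 5 were lower. TGFBR1, the type I TGF-beta receptor that phosphorylates SMAD2 and SMAD3, had 15.55, 16.95 and 19.72 FPKM in NC libraries 1, 2 and 3, against 11.52, 11.46 and 11.01 in the siRNA-labelled libraries. The groups were well apart. Its adjusted p was 0.0554 from edgeR, with a log2 fold change of -0.72 and a standard error of 0.16. The value was -0.55 without NC library 3 (adjusted p = 1.16e-06). With all 6 libraries DESeq2 called TGFBR1 (adjusted p = 0.00349), as did edgeR without the filter (adjusted p = 0.0161) and with a filter of 1 FPKM (adjusted p = 0.0496).

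TGFBR2, the kinase that recruits TGFBR1 once ligand is bound, had 24.25, 22.73 and 27.44 FPKM in the NC libraries, against 27.76, 26.52 and 26.30 in the siRNA-labelled libraries. The groups overlapped, and the log2 fold change was 0.02 with a standard error of 0.15. It was 0.17 without NC library 3 (adjusted p = 0.014 from edgeR). The sign of the first value turned without the filter on low values and when some other libraries were left out.

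TGFBR3 (betaglycan), ACVR1 and ENG (endoglin, a co-receptor) passed in edgeR, as lower, without NC library 3, where their log2 fold changes were -0.42, -0.21 and -0.31 with adjusted p-values of 0.0176, 0.024 and 0.00936 from edgeR. With all libraries these values were -0.30, -0.17 and -0.03 with standard errors of 0.18, 0.12 and 0.28, and ENG was above 0 in limma-trend. In DESeq2 without NC library 3, ENG passed, and TGFBR3 and ACVR1 did not, with adjusted p-values of 0.0685 and 0.0612. ENG depended most on NC library 3, at 3.98 FPKM there against 9.72 and 9.66 in NC libraries 1 and 2 and between 7.46 and 8.31 in the siRNA-labelled libraries. A gene on the opposite strand also overlaps ENG.

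The remaining receptors passed in neither fit. BMPR1B, BMPR2 and the activin receptors ACVR1B, ACVR2A and ACVR2B had log2 fold changes between -0.34 and 0.23 with all libraries. ORC4 overlaps ACVR2A on the opposite strand, with 2346 counts in all libraries against 778 for ACVR2A, and its part was not tested. BMPR2, the type II BMP receptor, had -0.10 with a standard error of 0.08 without NC library 3. ACVR2B was at 0.67 FPKM in NC library 3 and between 1.40 and 1.47 in the other 5 libraries.

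Of the 9 extracellular regulators, 6 were tested and FSTL3 passed. FSTL1 had 50.15, 48.32 and 53.42 FPKM in NC libraries 1, 2 and 3, against 74.44, 72.13 and 72.15 in the siRNA-labelled libraries. Every siRNA-labelled library was above every NC library, and the mean was 144% of the NC mean. With all libraries the log2 fold change was 0.43 with a standard error of 0.14 (adjusted p = 0.119 from edgeR), and without NC library 3 it was 0.54 (adjusted p = 1.36e-07). FSTL1 passed with all libraries in DESeq2 (adjusted p = 0.0333) and in limma-trend on log2(FPKM + 1) (adjusted p = 0.0448).

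FST (follistatin, which binds activin) had 3.73, 4.61 and 3.89 FPKM in the NC libraries, against 3.08, 2.88 and 3.22 in the siRNA-labelled libraries. It was lower in each of the latter, with a log2 fold change of -0.50 and a standard error of 0.16 (adjusted p = 0.117 from edgeR), and -0.47 without NC library 3 (adjusted p = 0.0179, and 0.0801 in DESeq2). BMP1, a metalloprotease that cleaves procollagens and the BMP antagonist chordin, had 11.46, 9.87 and 3.95 FPKM in NC libraries 1, 2 and 3, against 14.84, 13.15 and 13.06 in the siRNA-labelled libraries. Its log2 fold change was 0.64 with a standard error of 0.31 (adjusted p = 0.238 from edgeR), and 0.33 without NC library 3 (adjusted p = 0.0016). NC library 3 alone thus moved the BMP1 value by a large part. GREM1, a BMP antagonist, had -0.28 with all libraries and -0.04 with a standard error of 0.06 without NC library 3. BAMBI, a decoy receptor, had -0.38 and -0.24 in the same order and passed in neither.

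Of the 8 SMADs, 7 were tested, and 2 passed in either fit, SMAD3 and SMAD5. The common partner SMAD4 had 2.68, 2.92 and 2.85 FPKM in NC libraries 1, 2 and 3, against 2.73, 2.95 and 2.69 in the siRNA-labelled libraries. SMAD2 had 2.21, 2.02 and 2.15 in the NC libraries, against 2.15, 2.11 and 2.01 in the others. In both the groups overlapped, and without NC library 3 the log2 fold changes were -0.03 with a standard error of 0.07 for SMAD4 and -0.04 with a standard error of 0.06 for SMAD2. SMAD1, which shares its receptors with SMAD5, had 0.03 with a standard error of 0.13 in that fit. The inhibitory SMAD7, itself induced by TGF-beta, had -0.03 with a standard error of 0.17, and SMAD9 had 0.16 with a standard error of 0.19. With all 6 libraries the last 5 had values between -0.11 and 0.39.

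All 6 regulators of SMADs were tested and 0 passed in edgeR with all libraries, with 2 at an unadjusted p under 0.05. SKIL (SnoN), a repressor that binds SMADs, had 21.91, 21.03 and 16.21 FPKM in NC libraries 1, 2 and 3, against 15.22, 14.84 and 15.13 in the siRNA-labelled libraries. NC library 3 was nearly as low as the other group. The SKIL log2 fold change was -0.47 with a standard error of 0.12 (adjusted p = 0.0744 from edgeR), and -0.54 without NC library 3 (adjusted p = 2.48e-07). The ubiquitin ligase SMURF2, which marks SMADs and TGF-beta receptors for degradation, had 5.17, 5.42 and 5.10 FPKM in the NC libraries, against 7.07, 7.73 and 7.42 in the siRNA-labelled libraries. It was higher in each of the latter, with a log2 fold change of 0.41 and a standard error of 0.11 (adjusted p = 0.0904 from edgeR), and 0.46 without NC library 3 (adjusted p = 0.000164). DESeq2 called SKIL and SMURF2 with all 6 libraries, with adjusted p-values of 0.00877 and 0.033.

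CEP95 overlaps SMURF2 on the opposite strand and took 5766 counts in all libraries against 3407 for SMURF2. Its own log2 fold change was 0.87 (adjusted p = 0.0573 from edgeR), and its part in the SMURF2 value was not tested. Likewise TRRAP, with 0.90, overlaps SMURF1, which had 0.27 with a standard error of 0.13 and did not pass. TGIF1, a homeodomain repressor of SMAD targets, had 32.22, 30.59 and 22.36 FPKM in NC libraries 1, 2 and 3, against 28.44, 29.71 and 28.48 in the siRNA-labelled libraries. Its log2 fold change was -0.05 with a standard error of 0.13 with all libraries and -0.15 without NC library 3 (adjusted p = 0.018 from edgeR), and the first of these was above 0 in limma-trend. The repressor SKI had 0.19 with all libraries and -0.05 with a standard error of 0.08 without NC library 3. PMEPA1, a TGF-beta-induced inhibitor of SMAD signalling, had 0.22 and 0.26 and passed in neither.

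None of the 5 targets passed in edgeR with all libraries, where 2 had an unadjusted p under 0.05, and none passed without NC library 3, where again 2 did. The ID genes encode inhibitors of basic helix-loop-helix factors and are direct targets of BMP SMADs. ID1 had 7.16, 9.26 and 9.90 FPKM in NC libraries 1, 2 and 3, against 8.45, 8.61 and 8.41 in the siRNA-labelled libraries, which lay within the NC range. Its log2 fold change was -0.15 with a standard error of 0.19, and 0.02 with a standard error of 0.14 without NC library 3. ID2 had -0.24 and -0.15 in the same order. ID3, the highest of the ID genes, had 16.74, 13.88 and 18.47 FPKM in the NC libraries, against 13.66, 12.76 and 12.80 in the others. Although its groups did not overlap, its log2 fold change of -0.42 had a standard error of 0.17 and an adjusted p of 0.179 from edgeR, and without NC library 3 these were -0.25 and 0.0783. ID4 was in the other direction, with 1.16, 1.18 and 0.90 FPKM in the NC libraries, against 1.77, 1.76 and 1.49 in the siRNA-labelled libraries, and a log2 fold change of 0.55 with a standard error of 0.18 (adjusted p = 0.129). The ID4 value was 0.48 without NC library 3 (adjusted p = 0.0545 from edgeR). KLF10 had -0.07 with a standard error of 0.12, -0.12 without NC library 3, and 0.02 in limma-trend with all libraries.

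Ratios between genes of the same library do not depend on how libraries are scaled. Their size does depend on the exonic length given to each gene, which is 36426 bases for SMAD2 and 9981 for SMAD3. The ratios were taken for 7 pairs chosen after the values had been seen, and are given as a description. SMAD3 stood at 9.25, 10.2 and 7.30 times the FPKM of SMAD2 in NC libraries 1, 2 and 3, against at 6.12, 6.39 and 6.55 times in the siRNA-labelled libraries. SMAD5 stood at 4.95, 4.25 and 5.16 times SMAD1 in the NC libraries, against at 2.94, 2.67 and 2.69 times in the others. For both pairs of SMADs the siRNA-labelled libraries were below each NC library.

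The ratio of TGFBR1 to TGFBR2 was 0.641, 0.746 and 0.719 in the NC libraries, against 0.415, 0.432 and 0.419 in the siRNA-labelled libraries. BMPR1A to BMPR2 went from 1.14, 1.22 and 1.40 to 0.718, 0.711 and 0.839. In FPKM the type I receptor was thus above the type II receptor in each NC library and below it in each of the others. The order in the NC libraries rests partly on exonic length. In counts, BMPR1A had 460, 490 and 756 in NC libraries 1, 2 and 3, against 528, 530 and 707 for BMPR2. BMPR1A to BMPR1B was also lower without overlap, with a mean log2 difference of -0.60. FSTL1 to FSTL3 had the widest change of the 7 ratios, from 8.40, 7.77 and 13.6 to 22.4, 25.8 and 26.7. TGFB1 to TGFB2 overlapped between the groups, from 19.7 to 24.1 in the NC libraries and from 20.3 to 25.3 elsewhere.

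**Figure D4:**
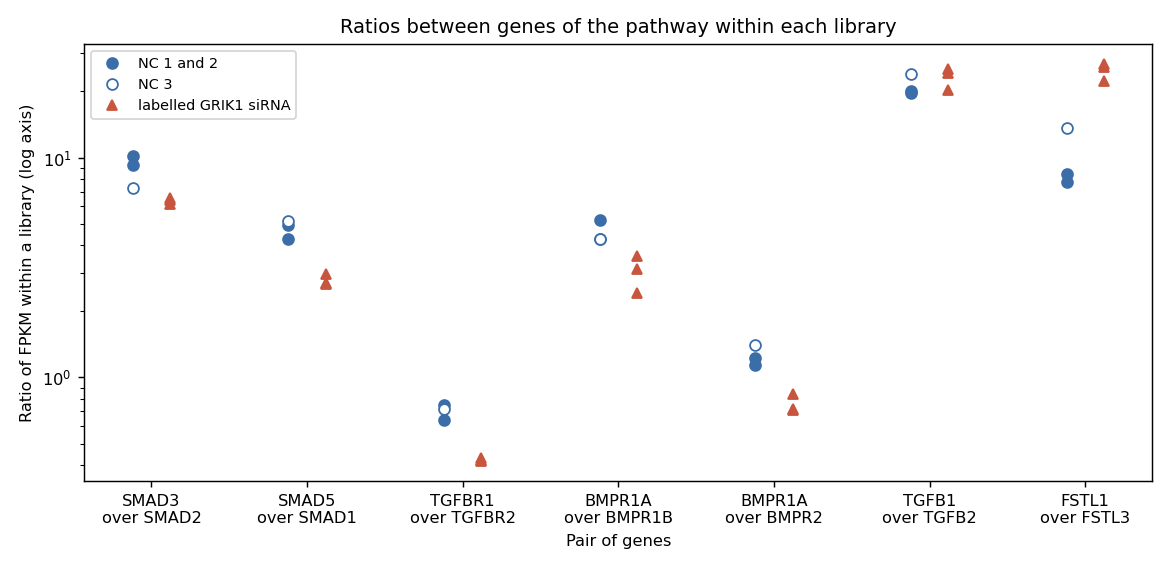
Ratio of the FPKM of 2 genes within each library, on a log axis, for 7 pairs (filled circles NC 1 and 2, open circles NC 3, triangles siRNA-labelled). In 5 pairs the siRNA-labelled libraries are below all NC libraries, FSTL1 over FSTL3 is above them, and TGFB1 over TGFB2 overlaps.

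A list of 96 other genes of the pathway, chosen by role, served for context. Of these, 54 were tested, and 2 passed in edgeR with all libraries, 1 higher and 1 lower, where 3.09% of all genes passed. ADAM12, a TGF-beta-inducible metalloprotease, had 15.63, 14.91 and 7.95 FPKM in NC libraries 1, 2 and 3, against 34.44, 35.02 and 34.55 in the siRNA-labelled libraries. It rose, with a log2 fold change of 1.37 and a standard error of 0.21 (adjusted p = 0.0306 from edgeR), and 1.16 without NC library 3. HMGA2, a chromatin protein induced by TGF-beta through SMADs, had 43.34, 42.99 and 25.59 FPKM in the NC libraries, against 18.75, 20.31 and 19.77 in the others. It fell, with a log2 fold change of -1.0 and a standard error of 0.18 (adjusted p = 0.0387 from edgeR), and -1.16 without NC library 3. Both genes passed in DESeq2 with all 6 libraries, but HMGA2 missed the threshold in limma-trend on log2(FPKM + 1) (adjusted p = 0.0839) and ADAM12 with a pseudocount of 0.1 (adjusted p = 0.0534). When any 1 of the other 5 libraries was left out, the adjusted p from edgeR was at least 0.0677 for ADAM12 and at least 0.0811 for HMGA2.

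Without NC library 3, 31 of the 54 passed, 18 higher and 13 lower. Across all genes 35.2% passed in that fit. COL1A1, the alpha 1 chain of type I collagen, had 106.27, 98.62 and 26.94 FPKM in NC libraries 1, 2 and 3, against 280.33, 247.64 and 249.44 in the siRNA-labelled libraries. Its log2 fold change was 1.31 without NC library 3 (adjusted p = 4.28e-11 from edgeR), and 1.70 with it (adjusted p = 0.0744). FBN1 (fibrillin-1, which anchors latent TGF-beta complexes) had 15.51, 13.65 and 3.29 FPKM in the NC libraries, against 35.54, 35.91 and 35.84 in the others. It had 1.27 without NC library 3 (adjusted p = 3.36e-11) and 1.68 with it (adjusted p = 0.0902). With all 6 libraries, COL1A1 and FBN1 passed in DESeq2, with adjusted p-values of 0.000816 and 0.00256, and in edgeR without the filter.

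CCN2 (connective tissue growth factor), a widely used TGF-beta target, had 19.96, 20.30 and 9.25 FPKM in NC libraries 1, 2 and 3, against 9.70, 7.90 and 8.29 in the siRNA-labelled libraries. It went the other way from COL1A1, with a log2 fold change of -1.25 without NC library 3 (adjusted p = 3.41e-08 from edgeR), while NC library 3 lay within the range of the siRNA-labelled libraries. DESeq2 called CCN2 with all 6 libraries (adjusted p = 0.00876). In the fit without NC library 3, the actin-binding TAGLN had 0.92, the anti-Müllerian hormone gene AMH 0.77, the cytokine IL11 0.69, FBN2 0.69 and the latent TGF-beta binding protein LTBP2 0.64, all higher. ITGB8, the integrin chain that activates latent TGF-beta, had -0.71 and the osteogenic factor RUNX2 had -0.56. In edgeR these 7 passed without NC library 3 and missed the threshold with all 6 libraries and the filter of 0.5 FPKM. With all 6 libraries DESeq2 also called TAGLN, LTBP2, FBN2 and ITGB8, and edgeR without a filter on low values called TAGLN, LTBP2, FBN2 and AMH.

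**Figure D5:**
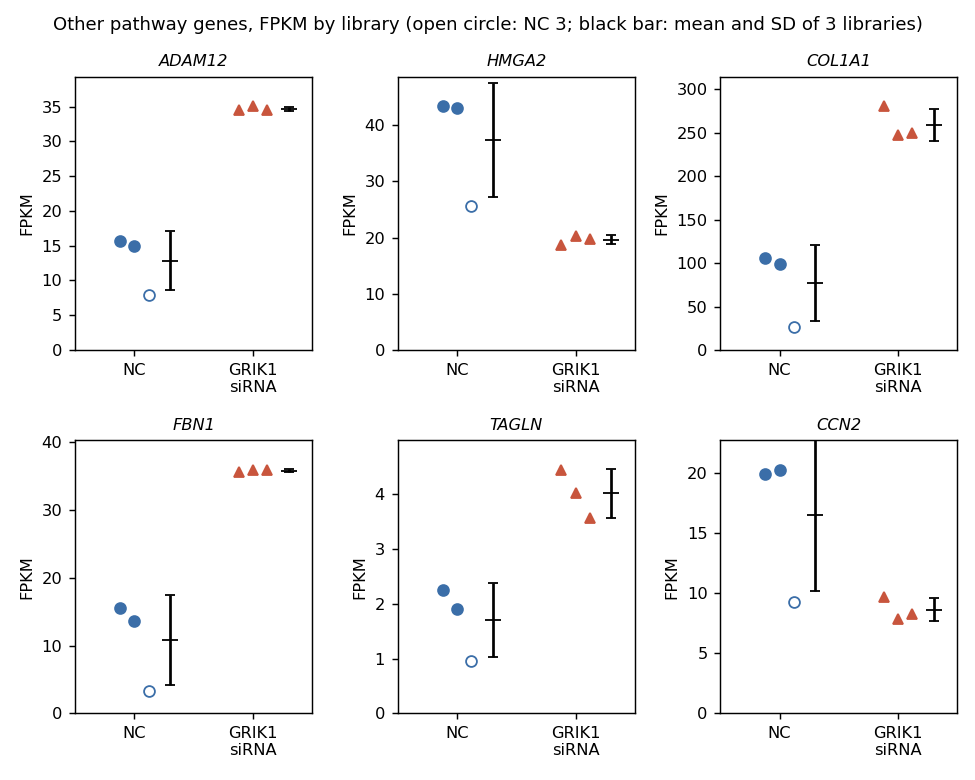
FPKM by library for 6 other genes of the pathway, with circles for NC (open for NC 3), triangles for the siRNA-labelled libraries, and a bar for the mean and SD of the 3 libraries of each group. ADAM12, COL1A1, FBN1 and TAGLN lie higher and HMGA2 lower in the siRNA-labelled libraries, and for CCN2 NC 3, at 9.25, lies among them.

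The distance of NC library 3 from the other NC libraries was smaller for the 42 genes than for the other genes of the pathway. Its median absolute log2 distance from the mean of NC libraries 1 and 2 was 0.324 for the 42 genes, 0.537 for the 54 others and 0.451 for all genes tested, while NC libraries 1 and 2 differed by 0.0757, 0.0758 and 0.119 in the same order. More than 2-fold lower in NC library 3 were BMP1 and ENG of the 42, and 9 of the 54. No gene of either list was more than 2-fold higher there. Of all genes tested, 9.33% were more than 2-fold lower there and 3.68% more than 2-fold higher.

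The deposited table assigns 136 entries, pseudogenes included, to the KEGG pathway of TGF-beta signalling, 42 of them among the 55 genes. Of the 136, 72 were tested and 4 passed in edgeR, all lower, which is 5.56% against 3.09% of all genes. They were BMPR1A, SMAD5, SMAD3 and TFDP1, a partner of E2F factors with a log2 fold change of -0.56. BMPR1A, SMAD5 and SMAD3 are the same genes as above. Of the 41 tested entries outside the 55 genes, 1 passed, which is 2.44%. The median over the 72 was -0.08. Without NC library 3, 28 of the 72 passed, 16 lower and 12 higher, which is 38.9% against 35.2% of all genes.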

How the data were processed

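U87-MG libraries were grouped by their titles, 3 as NC and 3 as GRIK1 siRNA. The authors deposited 1 table with raw counts of reads per gene and with FPKM values. The submitters' processing notes name cutadapt 1.9.1, HISAT2, HTSeq and GRCh38, and the strand setting is not given in the sources used here. All FPKM values (100%) equal the count scaled to exonic size and total count, within 0.0051. All 12 value columns were assigned to a library, so 0 were left over, and 0 rows name no gene.

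Counts of 15870 genes, those averaging 0.5 FPKM or more, entered edgeR (4.0.16, R 4.3.3; quasi-likelihood test) after TMM scaling, with no block and Benjamini-Hochberg adjustment over all of them. The standard error was taken from the fold change and its F statistic. A gene passed at an adjusted p under 0.05. GRIK1 was tested with an exact permutation test (scipy 1.17.1). Alternatives were median-of-ratios scaling, no filter or 1 FPKM, DESeq2 1.42.0, limma-trend (limma 3.58.1) on log2(FPKM + 1) and log2(FPKM + 0.1), the replicate number as a block, and leaving out each library. DESeq2 without NC library 3 was added after seeing the data. The tests were tried on simulated counts.

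The genes and lists were chosen with earlier results of these data known. The rule for named genes took GRIK1, each of the 55 genes past the threshold with all libraries or without NC library 3, the highest gene of each role, and, of the other pathway genes, up to 10 past the threshold and up to 10 past it only without NC library 3. Of the immune markers, 1 is not reported here. The limit of 3 counts covers counting error only. P-values set the difference between the groups against the spread between these libraries, which may be technical.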

Additional observations from a re-analysis of the deposited data

How the results depend on the processing

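The number of genes that passed depended mainly on the libraries. Leaving out 1 library gave between 0 and 5591 of all genes (490 with all 6), between 0 and 18 of the 42 genes (4 with all 6) and between 0 and 31 of the 54 other pathway genes (2 with all 6). The high values were without NC library 3, and without any 1 of the other 5 the count was 0, with between 2238 and 4434 genes at an unadjusted p under 0.05. In the same order, DESeq2 gave 1684, 11 and 11, and 4210, 15 and 24 without NC library 3. No filter gave 1403 of all genes and 12 other pathway genes, limma-trend with a pseudocount of 0.1 gave 280, 2 and 0, and limma-trend with a pseudocount of 1 gave 1 other pathway gene. The split of all genes, 255 higher and 235 lower with all 6 libraries, was 267 and 140 in limma-trend with a pseudocount of 1 and 175 and 105 with 0.1. With the replicate number as a block the counts were 0, 0 and 0, with 3324 genes at an unadjusted p under 0.05. The deviations of libraries with the same number from their group means correlated at -0.0703, 0.0441 and -0.0425. Since NC library 3 dominates the NC deviations, this cannot decide whether the numbers pair the libraries, and the labels do not say. Some log2 fold changes near 0 turned their sign. TGFBR2 had -0.01 without a filter and between -0.07 and 0.17 when 1 library was left out. ENG had 0.11 and 0.14 in limma-trend, 0.04 with the replicate block and between -0.31 and 0.14 when 1 library was left out. TGIF1 had 0.04 in both limma-trend fits and between -0.15 and 0.02 when 1 library was left out, and KLF10 had 0.02 in both. The GRIK1 difference stayed above 0 and short of the threshold in each alternative, from 0.06 to 0.49, the replicate block (0.49) included. The permutation test of GRIK1 could not have reached 0.05, since 0.1 is its smallest p with 3 against 3 and leaving out a library cannot lower it. The alternatives also use different scales, so the sizes of these GRIK1 values cannot be compared with each other. The cause of these changes was not tested.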
